A study of Mus musculus with 60 samples.

Results

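The genes described here encode the proteins by which an epithelium makes, holds and cuts its basement membrane: the integrin subunits, the laminin chains, the collagen chains, the matrix metalloproteinases (Mmps) and their tissue inhibitors (Timps). They were taken by gene symbol and protein-coding annotation, without use of any expression difference, and a gene was kept where a count table held at least 10 counts for it. In all, 50 of 31354 genes were kept out of 94 with such symbols and any count, 37 of them in the table of dome and suspension cultures, 39 in the table of passages and 47 in the table of single organoids, and 35 were kept in every table. Those that stayed under 10 counts included the chains of collagen I, III and VI, and Mmp2 and Mmp9. The genes Col4a3bp, Itgb1bp1, Itgb1bp2 and Itgb3bp carry similar names but encode other proteins and were not included.

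The organoids were grown from intrahepatic bile ducts of male C57BL/6N mice aged 3 to 4 months, and no mouse was treated or genetically modified. In the first experiment, 3 cultures embedded in Matrigel domes were compared with 3 cultures shaken in suspension with 10% Matrigel, each begun from the pooled livers of several mice. In the second, 35 of 42 single organoids picked from suspension cultures were used, with 8 from Set 1 at passage 11, 10 from Set 2 and 5 from Set 3 at passage 3, and 12 from Set 4 at passage 4. In the third, whole cultures of Sets 1, 3 and 4 were sequenced at passage 4 and passage 11. Each set came from 1 mouse, so that among the single organoids the mouse and the passage cannot be told apart. Values are CPM, the counts of a gene for every 1e6 counts of its library after TMM scaling. The libraries held 1776490 to 14761853 counts in the first experiment, 1486347 to 5532630 in the passage cultures and 1059002 to 11175868 in the organoids, and in the smallest of these libraries 1 count equals 0.944 CPM. All 10 cholangiocyte and ductal markers were above 1 CPM on average in every group, whereas 8 of 12 mesenchymal markers, Pdgfrb and Dcn among them, had no count in the first experiment and no mesenchymal marker averaged 1 CPM in a passage or organoid group.

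Laminins are trimers of an alpha, a beta and a gamma chain, which assemble with type IV collagen into the sheet on which bile duct cells rest. Cells hold this sheet through integrins, which are pairs of an alpha and a beta subunit: the alpha 6 subunit with beta 4 or beta 1, and alpha 3 with beta 1, bind laminin, alpha 1 and alpha 2 with beta 1 bind collagen, and alpha v with beta 6 binds RGD motifs and activates latent TGF-beta. Mmps cut matrix proteins, some after secretion and others, such as Mmp14 and Mmp15, at the cell surface, and Timps block them. Matrigel is itself a basement membrane extract of mouse origin, rich in laminin and type IV collagen, so that these genes report what the cells made and not what surrounded them.

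The start regions of 3 genes that were called between culture types are shown. Col4a1 and Col4a2 encode the 2 chains of the common type IV collagen trimer and moved in the same direction between culture types. Mmp7 had the largest fold-change between culture types. In the main fits none of the 3 was called between passages or between sets. Each window holds 250 bases before and 50 after the RefSeq start site in GRCm38.p6. Col4a1 lies on the minus strand (chr8:11312777-11313076) and Col4a2 on the plus strand (chr8:11312555-11312854), so that the genes point away from each other, and their windows share 78 bases, which are given in capitals as each strand reads them:
Col4a1: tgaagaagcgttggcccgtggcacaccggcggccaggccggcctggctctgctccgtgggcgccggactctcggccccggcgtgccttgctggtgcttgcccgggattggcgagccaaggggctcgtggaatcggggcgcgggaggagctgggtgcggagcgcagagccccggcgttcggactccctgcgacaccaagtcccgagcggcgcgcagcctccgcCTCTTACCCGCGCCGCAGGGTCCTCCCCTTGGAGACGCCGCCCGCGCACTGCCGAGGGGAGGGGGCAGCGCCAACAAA
Col4a2: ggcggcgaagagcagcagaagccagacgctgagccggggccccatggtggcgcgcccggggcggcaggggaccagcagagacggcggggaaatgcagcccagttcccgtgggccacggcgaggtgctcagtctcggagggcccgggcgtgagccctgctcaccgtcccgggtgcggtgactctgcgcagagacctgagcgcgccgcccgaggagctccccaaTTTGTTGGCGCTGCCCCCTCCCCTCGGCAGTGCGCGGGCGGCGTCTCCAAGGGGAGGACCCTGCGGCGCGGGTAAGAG
In the window of Mmp7 on the plus strand (chr9:7691840-7692139), capitals mark matches to TATAAA, the core of a TATA box, and to TGANTCA, the core of an AP-1 site:
Mmp7: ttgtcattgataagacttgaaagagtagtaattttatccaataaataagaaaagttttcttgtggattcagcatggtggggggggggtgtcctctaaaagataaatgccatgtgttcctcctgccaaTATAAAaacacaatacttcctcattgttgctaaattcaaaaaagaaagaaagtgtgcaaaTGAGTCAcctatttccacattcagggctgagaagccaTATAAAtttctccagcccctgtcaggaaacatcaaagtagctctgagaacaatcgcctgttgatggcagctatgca
The first letters of the matches lie 123, 63 and 26 bases before the start site, and the middle one is the TGANTCA match.

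A window was found for 37 of the 50 genes, with 43 windows in all. TGANTCA was found on either strand in 4 of these windows (9.30%), those of Itga3, Mmp7, Mmp13 and Mmp20, against 7.81% of 32851 windows of all genes. TATAAA was found in 3 (6.98%), those of Mmp7, Mmp13 and Mmp20, against 13.6% of all windows. The matches describe letters only. Mmp7, Mmp13 and Mmp20 all lie on chromosome 9. In GRCm38, Mmp7 spans 7692090 to 7699585, Mmp20 7628231 to 7674979 and Mmp13, farther away, 7272514 to 7283331. Mmp13 and Mmp20 stayed at or below 2.33 and 1.71 CPM where they were kept. An exon of 17 of the 50 genes overlaps an exon of another gene, on the opposite strand for 13, among them Col4a1 with Col4a2 and Timp3 with Syn3. The strand setting of the counting was not given in the sources used here, and reads from a shared stretch could then not be separated. Col4a1 and Col4a2 share only the stretch from 11312805 to 11312826 at their starts, whereas the libraries were made from 3′ ends.

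Compared with suspension cultures, domes had more mRNA of Mmp7, Mmp15 and Mmp23, of the laminin chain Lamb3, of Col18a1 and of Timp2, and suspension cultures had more of both type IV collagen chains, of Timp1 and Timp3 and of the collagen-binding integrin Itga1. Of the 30 members that passed the filter on low counts, 8 were called higher and 6 lower in domes by edgeR's quasi-likelihood test at an adj. P-value below 0.05, where 15% of 12699 genes tested were higher and 14.7% lower. The groups did not overlap for 17 of the 30, against 47.4% of all genes. The median log2 fold-change was 0.06 for the members and −0.04 for all genes tested. The filter removed Col4a3, Col4a4, Col4a6, Itga2b, Itga5, Lama4 and Mmp11. In these bulk cultures, fewer cells of a type and less RNA per cell cannot be told apart.

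**Figure D1:**
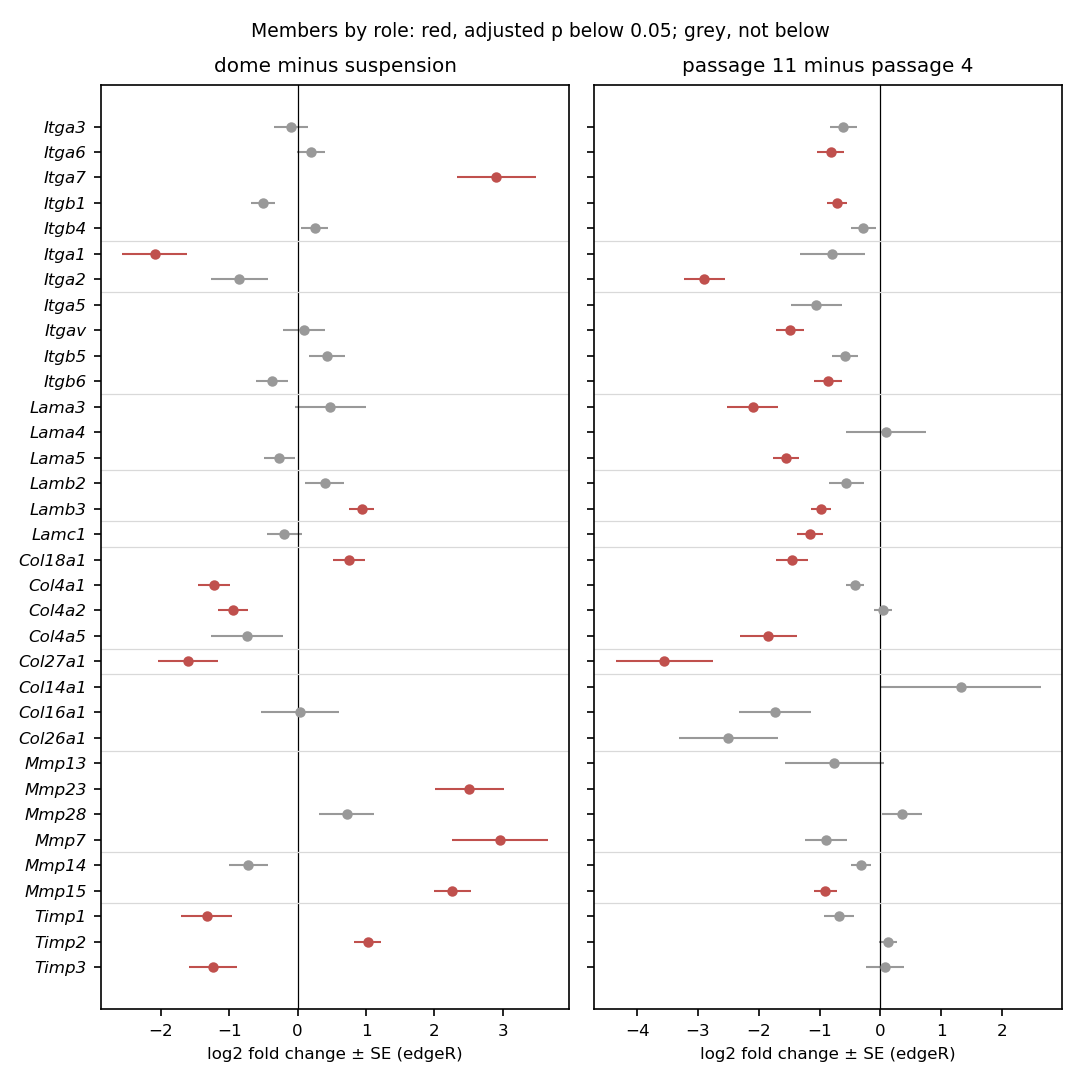
Log2 fold-change with its standard error for the members shown, dome minus suspension on the left and passage 11 minus passage 4 on the right, grouped by role from laminin-binding integrins at the top to Timps at the bottom, red where the adj. P-value was below 0.05. On the left 7 red points lie above 0 and 6 below it, and on the right all 13 red points lie below 0.

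Mmp7, matrilysin, a secreted protease without the domain that tethers other Mmps to collagen, stood at 88.5, 326 and 1110 CPM in the 3 domes and at 61.0, 59.1 and 75.1 CPM in suspension. All domes were above all suspension cultures, and the domes differed widely, with dome replicate 1 close to suspension. The log2 fold-change was 2.96 ± 0.70 (SE, adj. P = 0.0124). It was 1.60 without dome replicate 3 (adj. P = 0.0249), and it was no longer called without suspension replicate 1 (2.92, adj. P = 0.0510).

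Mmp15, a protease anchored in the membrane, was 35.6, 67.5 and 62.7 CPM in domes and 11.8, 12.3 and 9.92 CPM in suspension. Every dome was above every suspension culture, with a log2 fold-change of 2.27 ± 0.28 (adj. P = 0.00105). Its relative Mmp14, which activates pro-Mmp2, was on the other side, at 64.1, 27.1 and 33.0 CPM in domes and 75.5, 72.1 and 65.8 CPM in suspension. The groups of Mmp14 did not overlap, but dome replicate 1 came within 2 CPM of suspension, and the difference of −0.72 ± 0.29 was not called (adj. P = 0.0865). With cultures of the same number as a block it was −0.83 and passed the threshold (adj. P = 0.0223), and so it did without dome replicate 1 (−1.23, adj. P = 0.00361). Mmp23, a transmembrane protease that is released by cleavage, stayed low, at 2.59, 5.87 and 4.95 CPM in domes and 0.842, 0.709 and 0.551 CPM in suspension (2.51 ± 0.50, adj. P = 0.00639). Mmp28, a secreted protease of epithelia, was 3.58, 8.06 and 9.35 CPM against 3.79, 3.55 and 3.72 CPM, with overlapping groups and no call (adj. P = 0.204).

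The 3 inhibitors were called in different directions. Timp2, which also takes part in the activation of pro-Mmp2, was 328, 387 and 285 CPM in domes and 153, 168 and 171 CPM in suspension, a log2 fold-change of 1.02 ± 0.19 (adj. P = 0.00509). Timp1 was 3.50, 5.87 and 10.4 CPM in domes and 12.6, 14.9 and 15.8 CPM in suspension (−1.33 ± 0.38, adj. P = 0.0252). Timp3, the inhibitor that stays bound to the matrix, was 31.1, 12.5 and 17.6 CPM against 74.3, 42.3 and 38.8 CPM (−1.24 ± 0.35, adj. P = 0.0246). No group overlapped for any of the 3. The calls of Timp1 and Timp3 were lost when single cultures were left out, with adj. P-values of up to 0.0980 and 0.104, and that of Timp2 was kept in every alternative.

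**Figure D2:**
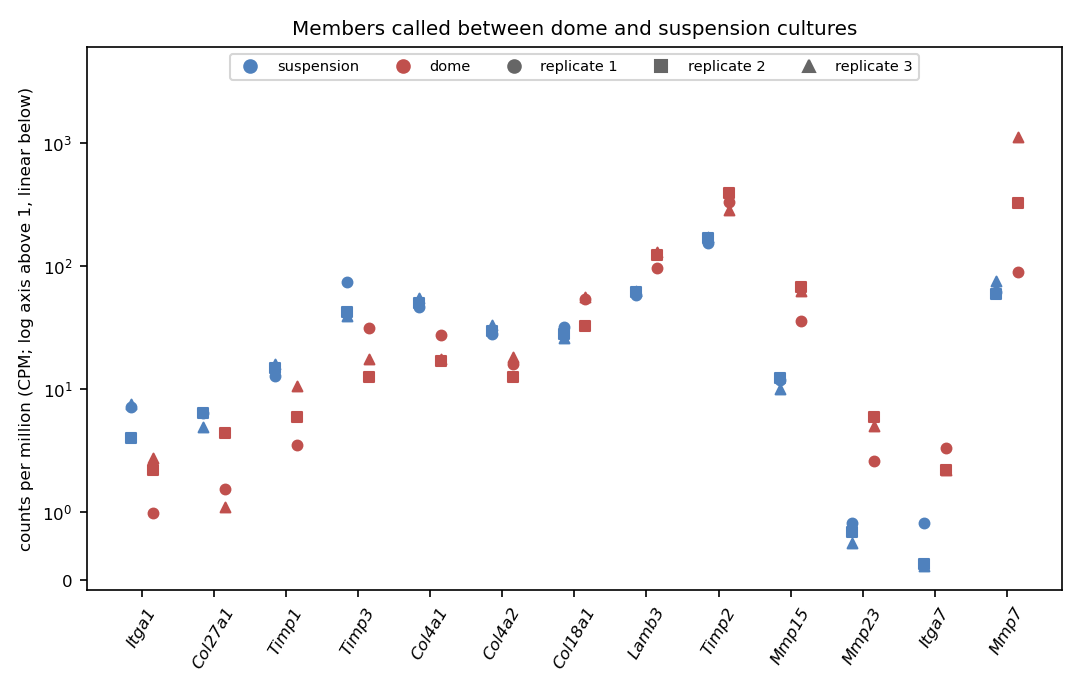
CPM of 13 members called between domes (red) and suspension cultures (blue), ordered by log2 fold-change from Itga1 to Mmp7, with 1 symbol per replicate on a log axis that is linear below 1. The 3 points of each group stand apart for all 13 genes, and the domes of Mmp7 spread from 88.5 to 1110 CPM.

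Laminin-332 is the laminin of epithelial anchoring sites, and Lama3 and Lamb3 encode its alpha and beta chains. Lamb3 was 96.0, 122 and 130 CPM in domes and 57.4, 60.8 and 62.6 CPM in suspension (0.93 ± 0.19, adj. P = 0.00644). It was higher in all domes than in any suspension culture. Lama3 was 4.49, 18.3 and 4.40 CPM against 4.21, 6.38 and 5.79 CPM, where only dome replicate 2 stood out and no call was made (adj. P = 0.508). The chains of laminin-511 did not show this pattern. Lama5 was 20.9, 24.2 and 31.9 CPM in domes and 25.7, 34.1 and 31.3 CPM in suspension (−0.27 ± 0.23, adj. P = 0.398), and Lamc1, the gamma chain of most laminins, was 13.7, 16.9 and 24.2 CPM against 19.8, 18.2 and 22.6 CPM (−0.20 ± 0.25, adj. P = 0.584).

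The type IV collagen chains went the other way from Lamb3. Col4a1 was 27.3, 16.9 and 17.6 CPM in domes and 46.3, 49.4 and 54.4 CPM in suspension (−1.22 ± 0.23, adj. P = 0.00502). Col4a2 was 15.8, 12.5 and 18.1 CPM against 27.8, 29.3 and 33.3 CPM (−0.95 ± 0.22, adj. P = 0.0103). For both, every dome was below every suspension culture, and without suspension replicate 3 the call of Col4a2 was lost (adj. P = 0.0534). Col18a1, the basement membrane collagen whose fragment is endostatin, was higher in domes at 53.5, 32.3 and 55.5 CPM against 31.8, 27.9 and 25.7 CPM (0.75 ± 0.23, adj. P = 0.0360), but dome replicate 2 differed from suspension replicate 1 by less than 1 CPM and the call was lost when any of 5 of the 6 cultures was left out. Col27a1, a collagen of the fibrillar class, was 1.52, 4.40 and 1.10 CPM against 6.31, 6.38 and 4.89 CPM (−1.60 ± 0.44, adj. P = 0.0226), a difference that was −0.77 and not called once each library was sampled down to the size of the smallest (adj. P = 0.324). The call of Col27a1 was also lost without dome replicate 1 (adj. P = 0.145) and without suspension replicate 1, 2 or 3 (adj. P = 0.0773, 0.0705 and 0.0561).

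Most integrin subunits that bind laminin differed little. Itga6 was 29.1, 23.5 and 30.8 CPM in domes and 27.4, 22.9 and 23.1 CPM in suspension (0.20 ± 0.20, adj. P = 0.485), and its partner in hemidesmosomes, Itgb4, was 49.5, 54.3 and 67.6 CPM against 41.0, 50.6 and 51.6 CPM (0.25 ± 0.20, adj. P = 0.367). Itga3 was between 17.3 and 27.9 CPM in all 6 cultures (adj. P = 0.787). Itgb1, the beta subunit shared by laminin- and collagen-binding integrins, was 75.5, 62.3 and 68.2 CPM in domes and 93.6, 97.9 and 102 CPM in suspension. Those groups stood apart, and the difference of −0.50 ± 0.18 just missed the threshold (adj. P = 0.0533), which it passed with limma-voom (adj. P = 0.0465), with a minimum count of 10 (0.0418) and without dome replicate 1 (0.0471). Itga1, a collagen receptor, was 0.990, 2.20 and 2.75 CPM against 7.15, 4.02 and 7.58 CPM (−2.09 ± 0.48, adj. P = 0.0105), but was not called without dome replicate 1 (−1.35, adj. P = 0.0814) or suspension replicate 3 (adj. P = 0.0568). Itga2, the other collagen receptor of epithelia, was 1.75, 4.40 and 3.85 CPM against 4.21, 5.44 and 4.89 CPM with overlapping groups (−0.85 ± 0.41, adj. P = 0.143). Itga7, a laminin receptor best known from muscle, was at most 3.27 CPM in domes and 0.842 CPM in suspension, from 50 counts in all domes and 8 in all suspension cultures (2.91 ± 0.58, adj. P = 0.00632), and was not called in thinned libraries (2.05, adj. P = 0.0796) or without dome replicate 1 or suspension replicate 3 (adj. P = 0.0563 and 0.0533). None of the 3 RGD-binding subunits tested, Itgav, Itgb5 and Itgb6, was called (adj. P = 0.846, 0.230 and 0.244), nor were Lamb2, Col4a5 and Col16a1 (adj. P = 0.327, 0.307 and 0.978). Mmp15, Timp2, Lamb3 and Col4a1 were called in every alternative.

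Leaving out suspension replicate 1 left 5 members called higher and 3 lower, leaving out suspension replicate 3 left 5 and 2, and the block of cultures by number gave 8 and 7. Over all genes tested, 1893 of 12956, 1926 of 12760 and 4019 of 12699 were called in these fits. The main fit called 3779 of 12699. Of the genes around the members, 7 of 15 other matrix proteases and regulators tested were higher and 1 lower in domes, among them Adam28 (2.72 ± 0.68) and basigin (Bsg), an inducer of Mmps (2.12 ± 0.46). Of 22 genes of the adhesion complex, 5 were higher and 5 lower, where Cav1 (−3.00 ± 0.43) and the kindlin Fermt2 (−2.76 ± 0.26) were lower. Of 11 matrix partners, 4 were higher, with Ecm1 at 2.76 ± 0.44, and 2 lower, with fibronectin (Fn1) at −2.12 ± 0.44. Of 9 collagen-processing genes 2 were higher, Pcolce (1.39 ± 0.46) and P4hb (0.97 ± 0.20), and none lower. The summed level of the macrophage and leukocyte markers, nearly all of it Cd14, was 207 to 281 CPM in domes and 524 to 649 CPM in suspension, and that of the mesothelial markers, mainly Msln, was 283 to 496 CPM against 142 to 192 CPM. The hepatocyte markers, mainly Ttr, summed to 565 to 890 CPM against 269 to 628 CPM, and the endothelial markers to at most 1.47 CPM. Clec4f, Lyz2 and Tyrobp had no count, and the part of these cells in the results was not tested.

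The passage comparison asks whether cultures of the same mouse changed with time in culture. Direction rests on the passage given in the deposited sample labels. No other measure used here settled it, and every sign in this comparison would turn if the labels were exchanged. In the cultures labelled passage 11, 14 of the 33 members tested were called lower and 0 higher, where 10.1% of 13738 genes tested were called lower and 10.1% higher. DESeq2 and limma-voom also called 0 members higher, and so did all other alternatives. The median log2 fold-change was −0.79 for the members and −0.05 for all genes. A lower value at passage 11 in each of the 3 sets was found for 24 of the 33 members and for 28.9% of all genes tested, and the groups did not overlap for 20 of the 33 and for 39.5% of all genes. The filter removed Col4a3, Col9a3, Itga2b, Itga7, Mmp11 and Mmp23.

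The members called lower took in chains of laminin-332 and laminin-511, and 2 of the 4 laminin-binding integrin subunits tested, Itgb1 and Itga6. Lama5, the alpha chain of laminin-511, was 135, 93.1 and 73.4 CPM at passage 4 in Sets 1, 3 and 4 and 31.4, 38.2 and 32.4 CPM at passage 11 (−1.55 ± 0.22, adj. P = 0.00181). Lamc1 was 45.4, 38.6 and 35.5 CPM at passage 4 and 15.7, 14.9 and 25.4 CPM at passage 11 (−1.16 ± 0.21, adj. P = 0.00563). Both were lower in every set, and every passage 11 culture lay below every passage 4 culture. Lamb3 went from 130, 162 and 156 CPM to 79.2, 86.1 and 59.1 CPM (−0.98 ± 0.17, adj. P = 0.00406), and Lama3 from 13.998, 7.68 and 17.8 CPM to 2.24, 4.57 and 1.27 CPM (−2.10 ± 0.42, adj. P = 0.00828). These 4 laminin chains were called in every alternative. Lamb2 was 12.2, 20.2 and 20.6 CPM at passage 4 and 8.08, 12.9 and 17.2 CPM at passage 11, lower in each set but overlapping between groups (adj. P = 0.208).

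**Figure D3:**
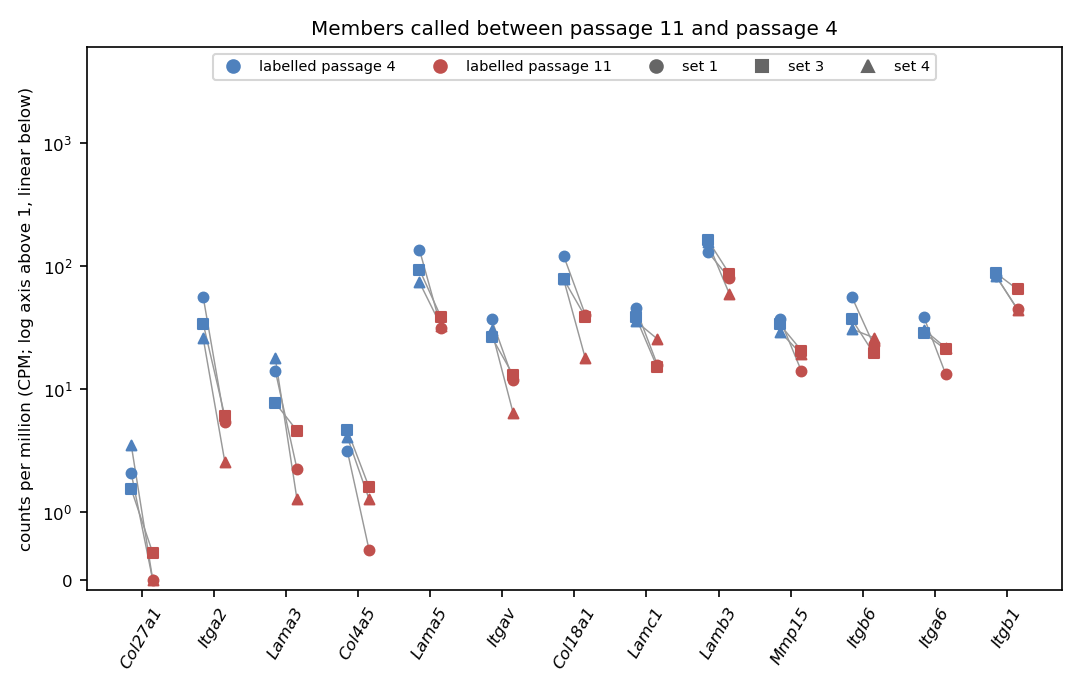
CPM of 13 members called between passage 4 (blue) and passage 11 (red), with grey lines joining the cultures of a set and 1 symbol per set, on a log axis that is linear below 1. Every line falls, and the groups stand apart for all 13 genes.

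Among the integrins, Itga2 had the largest change. It was 55.5, 33.8 and 25.7 CPM at passage 4 and 5.39, 5.96 and 2.54 CPM at passage 11 (−2.89 ± 0.34, adj. P = 0.000878), and the highest passage 11 culture was far below the lowest passage 4 culture. Itgav fell from 36.8, 26.5 and 30.1 CPM to 11.9, 12.9 and 6.36 CPM (−1.48 ± 0.24, adj. P = 0.00314). Its partner Itgb6 went from 55.7, 36.7 and 30.6 CPM to 22.9, 19.5 and 26.1 CPM (−0.86 ± 0.23, adj. P = 0.0263). Itgb6 rested on Sets 1 and 3, since Set 4 differed by only a few CPM.

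Itgb1 was 82.2, 86.9 and 82.7 CPM at passage 4 and 44.2, 64.2 and 43.9 CPM at passage 11 (−0.71 ± 0.17, adj. P = 0.0157). Itga6 was 38.1, 28.4 and 30.3 CPM against 13.2, 20.9 and 21.6 CPM (−0.82 ± 0.22, adj. P = 0.0246). Itga3 and Itgb4, the other laminin-binding subunits tested, were not called. Itga3 was 58.3, 38.0 and 43.1 CPM at passage 4 and 31.2, 36.2 and 21.0 CPM at passage 11 (−0.61 ± 0.22, adj. P = 0.0726), and passed with the sets as a block (adj. P = 0.0485). Itgb4 was 71.3, 66.0 and 49.4 CPM against 43.5, 67.0 and 40.7 CPM, nearly level in Set 3 (−0.28 ± 0.21, adj. P = 0.384). Itga1 was 5.44, 9.21 and 5.63 CPM against 3.14, 6.56 and 0 CPM (adj. P = 0.332). The calls of Itgb6, Itga6 and Itgb1 were lost when certain single cultures were left out, with adj. P-values of up to 0.102, 0.0725 and 0.0590, and that of Itgb1 also without Set 4 (0.0775).

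Collagens differed from one another. Col18a1 was 121, 77.9 and 77.8 CPM at passage 4 and 40.2, 38.6 and 17.8 CPM at passage 11 (−1.45 ± 0.27, adj. P = 0.00588). Col4a5, which pairs with Col4a3 and Col4a4 or with Col4a6, was 3.11, 4.61 and 4.05 CPM against 0.449, 1.59 and 1.27 CPM (−1.84 ± 0.47, adj. P = 0.0211), a call lost in 5 of 15 alternatives, with adj. P-values of up to 0.0967. Col27a1 was called lower from 36 counts at passage 4 and 2 at passage 11, a ratio of summed counts of 13.7 with an exact 95% interval of 3.54 to 118 that covers counting error only, and it was not called without Set 4 (adj. P = 0.0648). The common type IV chains were not called. Col4a1 was 62.2, 50.9 and 61.1 CPM at passage 4 and 44.4, 46.1 and 38.2 CPM at passage 11 (−0.42 ± 0.15, adj. P = 0.0655), and Col4a2 was 38.88, 32.4 and 39.8 CPM against 36.1, 40.4 and 38.2 CPM (0.05 ± 0.15, adj. P = 0.857). Of the low collagens, Col16a1, Col26a1 and Col14a1 were not called either (adj. P = 0.0616, 0.0543 and 0.518).

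Of the proteases, Mmp15 was 37.1, 33.4 and 29.2 CPM at passage 4 and 13.9, 20.5 and 19.1 CPM at passage 11, lower in every set (−0.90 ± 0.19, adj. P = 0.0105). Mmp7 was not called (−0.90 ± 0.35, adj. P = 0.0943), and the sets differed in direction. It was 1993 and 1877 CPM at passage 4 and 852 and 805 CPM at passage 11 in Sets 3 and 4, but 602 and 742 CPM in Set 1. Without Set 1 at passage 4 it was called lower (−1.28, adj. P = 0.00190), as it was without the filter on low counts (−0.91, adj. P = 6.12e-06). Mmp14 was 47.4, 54.1 and 54.9 CPM against 34.1, 41.6 and 52.2 CPM (adj. P = 0.211). The inhibitors were not called: Timp1 was 17.6, 25.5 and 29.0 CPM at passage 4 and 12.3, 19.3 and 12.7 CPM at passage 11 (−0.68 ± 0.24, adj. P = 0.0754), Timp2 was 291, 291 and 331 CPM against 343, 285 and 371 CPM (adj. P = 0.572), and Timp3 was 35.5, 31.5 and 17.8 CPM against 37.9, 17.7 and 34.3 CPM (adj. P = 0.903). Timp1 was called lower without the filter on low counts (adj. P = 0.0176), without Set 3 at passage 11 (−0.95, adj. P = 0.0493) and without Set 1 at passage 4 (−0.85, adj. P = 0.0388).

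With the sets as a block, 16 members were called lower and 0 higher. Leaving out Set 1 at passage 11, or Set 3 at passage 4, left 9 called lower, and leaving out Set 4, whose passage 11 culture was the smallest library, left 10. Over all genes tested, 2121 of 13642, 1552 of 13493 and 1460 of 13252 were called in these fits, in that order. The block called 2950 and the main fit 2784 of 13738. Itga2, Lama5, Lama3, Lamc1, Lamb3, Itgav, Col18a1 and Mmp15 were called in every alternative. In the genes around them, 3 of 10 matrix partners were lower and 0 higher, namely agrin (Agrn, −1.81 ± 0.19), Fn1 (−1.59 ± 0.31) and perlecan (Hspg2, −1.43 ± 0.31). Of 22 adhesion complex genes 7 were lower, with Fermt2 at −1.68 ± 0.40 and Dst, a hemidesmosome linker, at −1.54 ± 0.40, and 2 higher, with Tns4 at 2.20 ± 0.34. Of 10 collagen-processing genes 2 were lower, P4ha2 (−1.08 ± 0.23) and Plod3 (−0.54 ± 0.15), and of 15 other proteases and regulators 3 were lower and 1 higher, with Ctsl at −1.41 ± 0.20 and Serpinb5 at 0.80 ± 0.20. Cd14 again moved alongside: the macrophage and leukocyte markers summed to 876 to 1160 CPM at passage 4 and 381 to 624 CPM at passage 11, with no count of Adgre1 or Clec4f. The hepatocyte markers summed to 299 to 705 CPM at passage 4 and 761 to 1114 CPM at passage 11, and the endothelial markers to at most 3.63 CPM, and their part in the results was not tested.

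The 2 bulk experiments share no samples. Itga2, Lama3, Lama5, Lamc1, Itgav, Itgb6 and Itga6 were called lower at passage 11 and were not called between domes and suspension. Mmp15, Lamb3 and Col18a1 were called in both, higher in domes and lower at passage 11, Col27a1 was called lower in domes and lower at passage 11, and Timp1, Timp2, Timp3, Col4a1 and Col4a2 were called between culture types only. A difference between the comparisons was not tested.

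Among single organoids, the question is how the sets differ and how far organoids of a set differ from one another. Of 47 members, 35 passed the filter on low counts, which removed Col20a1, Col9a2, Itga10, Itga2b, Itga7, Itgb2l, Lamb1, Mmp11, Mmp17, Mmp19, Mmp20 and Mmp23. In Set 1 against Set 2, 1 was called higher and 8 lower (7.08% and 7.19% of 13927 genes), in Set 1 against Set 3, 0 and 9 (4.3% and 5.13%), and in Set 1 against Set 4, 6 and 5 (12.4% and 7.6%). In Set 2 against Set 3, 1 was higher and 2 lower (2.05% and 1.88%), in Set 2 against Set 4, 6 and 2 (7.02% and 5.35%), and in Set 3 against Set 4, 9 and 1 (7.89% and 3.67%). Comparisons that name the same set share its organoids. Adj. P-values are over all genes and all 6 comparisons.

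The collagen-binding integrins set Set 3 apart. Itga2 was 32.9, 46.1, 51.3, 62.4 and 79.5 CPM in the 5 organoids of Set 3, and ran from 6.93 over a median of 14.99 to 39.8 CPM in Set 1, from 5.20 over 16.2 to 48.2 CPM in Set 2 and from 3.61 over 5.94 to 8.59 CPM in Set 4. Set 3 thus overlapped with the upper ends of Sets 1 and 2, and no organoid of Set 4 came near the lowest of Set 3. Set 3 exceeded Set 4 by 3.17 ± 0.34 (adj. P = 1.01e-08), and it was above Set 1 (Set 1 minus Set 3, −1.50 ± 0.35, adj. P = 0.00339) and Set 2 (Set 2 minus Set 3, −1.38 ± 0.34, adj. P = 0.00471). Sets 1 and 2 did not differ beyond their spread (−0.12 ± 0.31), and both were above Set 4 (1.67 ± 0.32 and 1.80 ± 0.31, adj. P = 0.000310 and 7.05e-05). These calls were kept in every alternative.

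Itga1 was 15.8, 30.0, 30.4, 40.5 and 138 CPM in Set 3. It ran from 8.54 over 11.8 to 14.9 CPM in Set 1, from 6.24 over 8.68 to 25.8 CPM in Set 2 and from 1.72 over 6.56 to 14.8 CPM in Set 4. Set 3 did not overlap with Sets 1 or 4, and it exceeded Set 4 by 2.88 ± 0.34 (adj. P = 9.01e-08), while Set 1 minus Set 3 was −2.11 ± 0.37 (adj. P = 9.72e-05) and Set 2 minus Set 3 was −2.19 ± 0.35 (adj. P = 2.75e-05). Without the organoid at 138 CPM these differences were 2.06, −1.29 and −1.37, and all 3 were still called. Itgav, at 21.1, 21.6, 22.6, 24.4 and 30.7 CPM in Set 3, was above all organoids of Set 1, whose median was 11.1 CPM (Set 1 minus Set 3, −1.11 ± 0.25, adj. P = 0.00210).

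**Figure D4:**
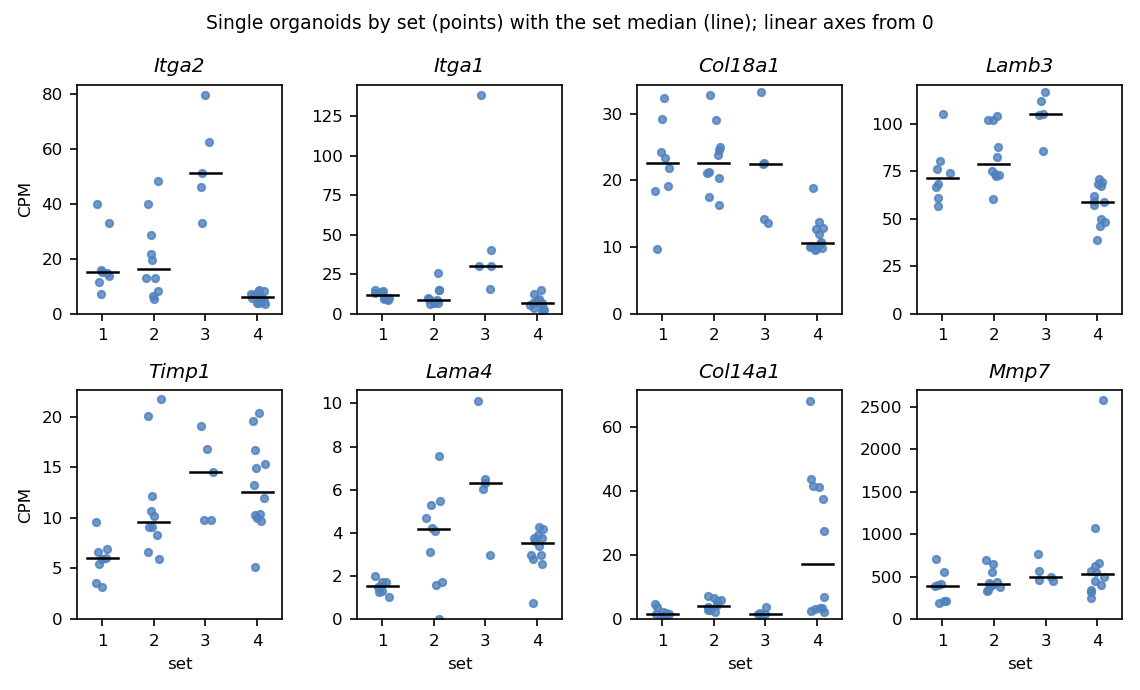
CPM of 8 members in single organoids (points) of Sets 1 to 4, with the median of each set as a line, on linear axes from 0. Itga2 and Itga1 are highest in Set 3, Col18a1 and Lamb3 lowest in Set 4, Timp1 and Lama4 lowest in Set 1, Col14a1 spreads from 2.22 to 68.3 CPM in Set 4, and 1 organoid of Set 4 reaches 2577 CPM of Mmp7.

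Set 4 was low in several basement membrane genes. Col18a1 ran from 9.60 over 10.5 to 18.9 CPM in Set 4, against medians of 22.6, 22.6 and 22.4 CPM in Sets 1, 2 and 3, and was lower in Set 4 in all 3 comparisons (Set 1 minus Set 4, 0.92 ± 0.18, Set 2 minus Set 4, 1.00 ± 0.18, Set 3 minus Set 4, 0.88 ± 0.21, adj. P = 0.000549, 0.000106 and 0.00425). Lamb3 ran from 38.86 over 59.1 to 71.2 CPM in Set 4, and all 5 organoids of Set 3, at 85.9, 105, 105, 112 and 117 CPM, were above it (Set 3 minus Set 4, 0.85 ± 0.15, adj. P = 9.96e-05). The ranges were 60.5 to 104 CPM in Set 2 (Set 2 minus Set 4, 0.52 ± 0.12, adj. P = 0.00371) and 56.5 to 105 CPM in Set 1 (0.34 ± 0.13, not called). Set 1 was below Set 3 in Lamb3 (−0.51 ± 0.16, adj. P = 0.0325), a call lost without any of 4 organoids of Set 3 (adj. P up to 0.0831). Lamc1 was called lower in Set 4 than in Set 1 only (Set 1 minus Set 4, 0.65 ± 0.19, adj. P = 0.0171), and the call was not kept with all 42 organoids (adj. P = 0.165). Itgb1 had a median of 156 CPM in Set 4 and 274 CPM in Set 3, whose lowest organoid, at 229 CPM, was above the highest of Set 4, at 220 CPM (0.97 ± 0.28, adj. P = 0.0195), but with all 42 organoids this was not called (0.64, adj. P = 0.194). Set 1 was also above Set 4 in Itgb1 (0.73 ± 0.25, adj. P = 0.0475), a call kept in only 6 of 14 alternatives, with adj. P-values of up to 0.373. It was lost, among others, under limma-voom and with all 42 organoids (adj. P = 0.0957 and 0.249). Itgb6 was lower in Set 4 than in Sets 1 and 3 (0.87 ± 0.22 and 0.86 ± 0.25, adj. P = 0.00528 and 0.0178). Without the organoid of Set 3 that had 105 CPM of Itgb6, the difference from Set 3 was 0.55 and not called (adj. P = 0.164). Leaving out Set 3 organoid 3 left 5 of the 9 members called higher in Set 3 than in Set 4. Over all genes, it left 803 of 14185 called in either direction, against 1610 of 13927.

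Col14a1, a collagen that lies on the surface of fibrils, was the only member called higher in Set 4 than in each of the other sets. It ran from 2.22 over 17.2 to 68.3 CPM in Set 4, from 0.880 over 1.73 to 4.66 CPM in Set 1 and from 2.14 over 3.96 to 7.12 CPM in Set 2, and was 0, 1.49, 1.58, 1.81 and 3.89 CPM in Set 3. Organoids of Set 4 lay both within and far above the range of the other sets. Set 4 was higher than Sets 1, 2 and 3 (Set 1 minus Set 4, −3.64 ± 0.57, Set 2 minus Set 4, −2.43 ± 0.48, Set 3 minus Set 4, −3.60 ± 0.71, adj. P = 1.85e-05, 0.000538 and 0.000503), and limma-voom did not call the difference from Set 2 (−1.54, adj. P = 0.0557).

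In Set 1, the only set picked at passage 11, 4 members were lower than in each of the other sets and 0 were higher, where 1.52% and 2.41% of all genes were. Timp1 ran from 3.12 over 6.00 to 9.62 CPM in Set 1, against medians of 9.64, 14.5 and 12.6 CPM in Sets 2, 3 and 4 (−0.94 ± 0.25, −1.21 ± 0.29 and −1.13 ± 0.24, adj. P = 0.0109, 0.00450 and 0.00141). Lama4, the alpha chain of laminin-411, ran from 1.01 over 1.53 to 1.99 CPM in Set 1, against medians of 4.15, 6.32 and 3.51 CPM (−1.39 ± 0.32, −2.02 ± 0.35 and −1.08 ± 0.31, adj. P = 0.00274, 9.46e-05 and 0.0182), and thinning all libraries to the smallest total left none of the 3 called. Itga5, the fibronectin receptor, had medians of 0.703 CPM in Set 1 and 1.85, 2.47 and 1.66 CPM in the others. Col4a6 had 5 counts in all 8 organoids of Set 1 against 89, 24 and 43 in Sets 2, 3 and 4. The ratio of Set 2 to Set 1 in summed counts per total was 24.2, with an exact 95% interval of 9.98 to 76.3 for counting error only. Its neighbour on the X chromosome, Col4a5, which is read from the same region in the other direction, did not differ between Set 1 and any other set, with medians of 14.1, 20.5, 17.7 and 11.2 CPM in Sets 1 to 4. Col4a6 and Itga5 are among the lowest of the members tested. Set 1 was also lower than Set 2 in Lama5, at medians of 31.2 and 48.9 CPM (−0.71 ± 0.17, adj. P = 0.00419), and higher in Mmp15, at 7.75 and 4.54 CPM (0.93 ± 0.27, adj. P = 0.0170). With an all-42-organoid fit these 2 differences were not called (adj. P = 0.0622 and 0.0697). Lama3, Col16a1 and Col27a1 were lower in Set 1 than in Set 2 as well (−1.50 ± 0.49, −1.58 ± 0.37 and −1.63 ± 0.45, adj. P = 0.0377, 0.00340 and 0.0129). In thinned libraries none of these 3 was called (−0.99, −0.82 and −1.49, adj. P = 0.233, 0.409 and 0.0727). With the replicate block, Lama3 and Col27a1 were not called either (adj. P = 0.0683 and 0.114), nor was Lama3 with all 42 organoids (adj. P = 0.229).

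Set 2 stood above Set 4 in Lama5 (0.56 ± 0.15, adj. P = 0.0114), Lama3 (2.46 ± 0.48, adj. P = 0.000457) and Col16a1 (1.30 ± 0.33, adj. P = 0.00724) and below it in Timp2 (−0.49 ± 0.15, adj. P = 0.0280), and above Set 3 in Lama5 (0.60 ± 0.20, adj. P = 0.0437). The Col16a1 call was lost in thinned libraries (0.95, adj. P = 0.276) and with the replicate block (adj. P = 0.109), and the Timp2 call with all 42 organoids (adj. P = 0.139). The Lama5 call against Set 3 was kept in only 7 of 14 alternatives, with adj. P-values of up to 0.234. It was lost, among others, with adjustment within that comparison (adj. P = 0.140) and without Set 3 organoid 1, 3 or 6 (adj. P = 0.134, 0.0925 and 0.0809). Of the genes around the members, Cav1 was lower in Set 1 than in Sets 2, 3 and 4 (−3.28 ± 0.53, −1.94 ± 0.64 and −1.80 ± 0.55), and Fermt2 was higher in Set 3 than in Set 4 (1.38 ± 0.20) and lower in Set 2 than in Set 3 (−1.15 ± 0.21).

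In the fit reported here, Itga3, Itga6, Itgb4, Col4a1, Col4a2, Mmp14, Mmp7 and Timp3 were called in none of the 6 comparisons. With all 42 organoids, Mmp14 was called lower in Set 2 than in Set 3 (−0.58, adj. P = 0.0445). Mmp7 ran from 186 over 395 to 713 CPM in Set 1, from 336 over 416 to 691 CPM in Set 2 and from 248 over 526 to 2577 CPM in Set 4, and was 448 to 763 CPM in Set 3. Set 1 minus Set 4 was −0.84 ± 0.30 in the fit reported here, which missed the threshold (adj. P = 0.0591), and it was called by DESeq2 (adj. P = 0.0386), without the filter (0.0443), in thinned libraries (0.0443) and with adjustment within the comparison (0.0363). Mmp14 ran from 72.3 to 199 CPM and Col4a1 from 49.4 to 211 CPM over all 35 organoids, and the organoids of Set 1 alone spanned both ranges.

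The biological coefficient of variation within sets, the relative spread beyond counting noise that edgeR estimates, had a median of 0.320 over the 35 members and 0.277 over all genes tested. It was lowest for Lamb3 (0.197), Itga3 (0.210) and Itgb4 (0.214), and highest for Col4a6 (0.734), Col14a1 (0.701) and Lama3 (0.655). Among members with an average log2 CPM above 6, Mmp7 (0.442), Timp3 (0.445) and Itgb1 (0.380) varied more than Mmp14 (0.232) and Timp2 (0.245). The coefficient depends on the level, so that low genes such as Col4a6 and Lama3 are not comparable with abundant ones.

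For chains that are joined in 1 protein, the levels were compared across the organoids of a set, in 3 sets. P-values were adjusted over 9 relations, of which 6, those of 2 pairs, are given. Col4a1 and Col4a2 rose and fell together in Set 1 (Pearson's r = 0.945, exact permutation P = 0.000992, adjusted over the 9 relations 0.00893, Spearman's rho = 0.929, P = 0.00223, n = 8) and in Set 4 (r = 0.814, permutation P = 0.00224, adjusted 0.0101, rho = 0.699, P = 0.0130, n = 12). In Set 2 the relation was not called (r = 0.425, permutation P = 0.225, adjusted 0.376, rho = 0.261, P = 0.470, n = 10). Without the 2 organoids farthest from the median of Col4a1, r was 0.853 in the 6 left in Set 1 and 0.564 in the 10 left in Set 4, and neither passed the threshold after adjustment (permutation, 0.317 in both). In Set 4, Col4a1 and Col4a2 also fell with the log2 library total (r = −0.731 and −0.449), and in Set 1 the values were −0.323 and −0.471. In libraries thinned to 1 total, r was 0.954 and 0.846.

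The other pair did not pass the threshold after adjustment in any set. Itga6 and Itgb4 had r = 0.729 in Set 1 (exact permutation P = 0.0400, adjusted 0.120, rho = 0.667, P = 0.0831), −0.328 in Set 2 (permutation P = 0.344, adjusted 0.443, rho = −0.442, P = 0.202) and 0.0132 in Set 4 (permutation P = 0.974, adjusted 0.974, rho = 0.161, P = 0.621). Without the 2 farthest organoids, r of Itga6 and Itgb4 was 0.712, −0.196 and −0.161.

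**Figure D5:**
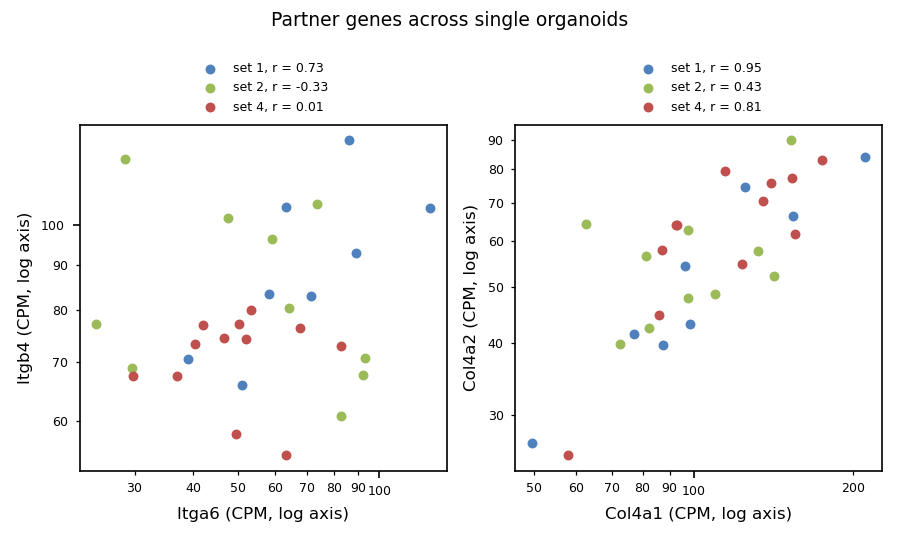
CPM of 2 pairs of partner genes in single organoids of Sets 1, 2 and 4 on log axes, with Pearson's r of the log2 CPM of each set in the legend. Points of Col4a1 and Col4a2 follow a line in Sets 1 and 4 (r = 0.95 and 0.81), and those of Itga6 with Itgb4 scatter.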

How the data were processed

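RNA-seq was done on cultures and single organoids of mouse bile duct cells. The deposited values are whole-number gene counts, which the authors made from 3′-end libraries with zUMIs, STAR, SAMtools 1.9 and featureCounts on mm10 (GRCm38) and did not normalise. The libraries carried UMIs, and the authors down-sampled them in zUMIs where library sizes varied. Whether the deposited counts are UMIs or reads, and from before or after that step, was not stated. Technical replicates were summed. Low genes were removed with filterByExpr (minimum count 3), libraries were scaled by TMM and genes were tested in edgeR 4.0.16 (R 4.3.3) by quasi-likelihood F-tests with Benjamini-Hochberg adjustment over all genes, and for the sets over all 6 comparisons, at 0.05. The study used limma-voom, here an alternative (limma 3.58.1), as was DESeq2 1.42.0.

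Correlations used log2 CPM with a prior count of 2 and two-sided permutation tests in scipy 1.17.1, exact for 8 organoids and otherwise with 100000 resamples. On simulated data, edgeR recovered 81.1% of genes changed by 2 on the log2 scale between culture types, 78% between passages and 89.8% between Sets 1 and 2, and 23%, 51.5% and 55.2% of those changed by 1. Of the genes called in these simulations, 9.82% were false between culture types, 7.91% between passages and 3.42% between Sets 1 and 2. In the simulations of both bulk comparisons, false calls were thus more frequent than the adj. P-value threshold allows. Groups follow the deposited labels, and the set passages and the 7 organoids left out follow the study. Replicates of the passage comparison are 3 mice, those of the first experiment 3 cultures per type, and organoids of a set come from 1 mouse, so that P-values between sets measure the spread among organoids. The main fits held the group only and did not use any pairing of samples. Only the replicate block paired samples with the same number. Between passages these come from the same mouse (residual correlations 0.110, 0.0283 and 0.108). Between culture types they were paired because every correlation was above 0.1 (0.153, 0.165 and 0.191). Samples with different numbers were not compared in this way, so that these correlations do not show that the cultures are paired.

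The members, gene lists and tests were chosen with earlier results of these data known. Any member may be named; values per sample are given for called members whose average log2 CPM reached 2, at most 12 per direction, and for 20 listed members, and lower called members were added after their values were seen. Alternatives were RLE scaling, no filter, a minimum count of 10, the other 2 tools, a replicate block, thinning, left-out replicates, 1 technical replicate, all 42 organoids and adjustment within comparisons. A fit without Set 4 at both passages was added after seeing the data. Protein sequences were not analysed here, and some genes are counted but not reported here.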

Additional observations from a re-analysis of the deposited data

Results flagged for a closer look

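Dixon's 95% limit was applied to 75 combinations of a named member and a set of 5 to 10 organoids. In 7 of them, an organoid lay farther from the rest than this limit. Independent, normally distributed values pass it in about 1 in 20 cases. CPM need not be normally distributed, and the genes of an organoid are not independent, so that the 7 cannot be read against that rate. In Set 3, organoid 3 was flagged for Itga1 (138 CPM, next 40.5), for Col4a5 (42.6 CPM, next 20.5) and, on the low side, for Col4a2 (35.7 CPM, next 51.3), and organoid 4 for Itgb6 (105 CPM, next 56.2). In Set 2, organoid 3 was flagged for Col4a2 (89.8 CPM, next 64.4) and organoid 7 for Itga1 (25.8 CPM, next 15.2). In Set 1, organoid 1 was flagged for Mmp15 (16.6 CPM, next 9.68).

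Without organoid 3 of Set 3, Col4a5 was no longer called between Sets 3 and 4 (0.64, adj. P = 0.215 in edgeR), and Itga1 was.

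For 3 of the listed members, the 2 technical replicates of 1 set lay above and those of another set below the other passage, and this difference between sets was not tested. The log2 CPM of passage 11 minus passage 4 was 0.30 in Set 1, −1.23 in Set 3 and −1.22 in Set 4 for Mmp7. It was −0.83 in Set 3 and 0.95 in Set 4 for Timp3, and −0.11 in Set 1 and 0.32 in Set 3 for Col4a2.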

How the results depend on the processing

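No called difference of a member changed sign in any alternative, while some that were not called did, such as dome minus suspension of Itga2 (−1.11 to 0.057) and Lamc1 (−0.46 to 0.031). Members called higher in domes fell to 5 when libraries were thinned to the smallest total. Over all genes, thinning left 2813 of 11258 called in either direction, against 3779 of 12699. Among organoids, a minimum count of 10 left 5 lower in Set 1 than in Set 2, 3 lower than in Set 4 and 2 lower than in all 3 other sets, and thinning left 3, 3 and 1, with 3 higher in Set 1 than in Set 4. With all 42 organoids, 0 were higher in Set 1 than in Set 2, 2 higher in Set 1 than in Set 4, 0 higher in Set 2 than in Set 3, 1 lower in Set 2 than in Set 4 and 4 higher in Set 3 than in Set 4. Limma-voom also left 1 lower in Set 2 than in Set 4, and 0 were higher in Set 2 than in Set 3 without the filter or with adjustment within the comparison. Calls over all genes also fell. From 1988 between Sets 1 and 2, they fell to 1731 with a minimum count of 10, 1157 on thinning and 1384 with all 42 organoids. Between Sets 1 and 4 they fell from 2780 to 2551, 1665 and 1882. Correlations of Col4a1 with Col4a2 without the 2 farthest organoids were 0.853 and 0.564. The cause of these shifts was not tested, apart from the fewer genes, counts or organoids that the settings use.

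Organoids of different sets share only a number (35 pairs, residual correlations −0.366 to 0.414, median 0.0564). With a block of these numbers, 2 were higher and 5 lower in Set 1 than in Set 2, 3 and 3 in Set 1 against Set 4, 0 higher in Set 2 than in Set 3, 5 higher in Set 3 than in Set 4, and 1 lower in Set 1 than in all others, and Timp3 was called higher in Set 3 than in Set 4 (0.98, adj. P = 0.0440 in edgeR). Over all genes, this block took the calls between Sets 1 and 2 from 1988 to 1699. Those between Sets 1 and 4 went from 2780 to 1584, and those between Sets 3 and 4 from 1610 to 731. The paired fits of the bulk comparisons gave 8 higher and 7 lower in domes and 0 and 16 at passage 11, and of the listed members they changed the calls of Mmp14 and Itga3.

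With each replicate left out in turn, 5 to 7 members were higher and 2 to 5 lower in domes, 9 to 15 were lower at passage 11 and 0 higher, 0 to 1 were higher in Set 2 than in Set 3, 5 to 9 higher in Set 3 than in Set 4, 7 to 9 lower in Set 1 than in Set 3, 5 to 6 higher in Set 1 than in Set 4 and 3 to 4 lower in Set 1 than in all others. In these fits, the genes called over all tested ranged from 1893 to 3837 between culture types and from 1552 to 2244 between passages. They ranged from 1018 to 1166 between Sets 1 and 3 and from 803 to 1895 between Sets 3 and 4. Of the organoids, only the 5 of Set 3 were left out singly. Depth limits members near 1 CPM, such as Col4a6 and Itga5.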

Other observations

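Col14a1, higher in single organoids of Set 4 than in the other sets, was also uneven among the bulk cultures, where it was 0 CPM in Set 1 at both passages, 0.576 and 0.795 CPM in Set 3 and 2.11 and 11.4 CPM in Set 4 at passages 4 and 11. The technical replicates of Set 4 gave 2.20 and 2.12 CPM at passage 4 and 12.98 and 11.0 CPM at passage 11. The bulk and organoid tables were scaled separately, and a difference between them was not tested.

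Itga2 was lower at passage 11 than at passage 4 in bulk cultures of Sets 1, 3 and 4. The single organoids of Set 1, the only set picked at passage 11, had a median of 14.99 CPM, and those of Set 4, picked at passage 4, had 5.94 CPM. Col18a1, Lamc1, Itgb1 and Itgb6 were also called lower at passage 11 in bulk but higher in Set 1 than in Set 4. Of these genes, only Col18a1 kept its call between the sets in every alternative. Against a set picked at passage 3, Itga2, Lamb3, Itgav, Lama5, Lama3 and Col27a1 were called lower in Set 1, as in bulk. Mmp15 was called higher there. Among organoids the mouse and the passage cannot be told apart, and a difference from the bulk cultures was not tested. Timp1 was lowest in Set 1 among organoids, and in bulk cultures it was 17.6, 25.5 and 29.0 CPM at passage 4 and 12.3, 19.3 and 12.7 CPM at passage 11, which was not called.

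Between dome and suspension cultures, the cell cycle gene Cdk1 was lower in domes (−1.43 ± 0.27, adj. P = 0.00481 in edgeR), and in the passage cultures it was higher in the libraries labelled passage 11 (1.38 ± 0.13, adj. P = 0.000353), a direction that, like every sign between passages, rests on those labels. Between passages Top2a was also higher (0.83 ± 0.20, adj. P = 0.0168), and Mki67 was not called (0.61 ± 0.31, adj. P = 0.191). In single organoids Cdk1 was lower in Set 1 than in Sets 2 and 4 (−0.68 ± 0.19 and −0.69 ± 0.18, adj. P = 0.0121 and 0.00907). Set 1 minus Set 3 was not called (−0.17 ± 0.22, adj. P = 0.673). Lamb3, Col18a1 and Mmp15 moved in the opposite direction to Cdk1 in both bulk comparisons. Col4a1, Col4a2, Timp1, Timp3, Itga1 and Col27a1 were lower in domes along with Cdk1. The part of Cdk1 in the results was not tested.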
